A study of Homo sapiens with 6 samples.

Results

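The genes described here encode the presynaptic side of the photoreceptor ribbon synapse. A list of 38 names was matched to the gene symbols of the deposited matrices, and 37 genes were found among 36601, because PIKACHURIN is another name of EGFLAM. The list holds 10 ribbon and active zone scaffold genes, 4 calcium channel subunits, 5 synaptic vesicle genes, 8 genes of the SNARE fusion machinery and 10 genes of adhesion and the synaptic cleft. For each sample, raw counts were summed over 4 classes of cells and expressed as CPM, in which each count is divided by the class total of its sample and scaled to the same depth. Rods were cells with at least 3 UMIs of NRL, a rod transcription factor, and more NRL than PDE6H. Cones were cells with at least 3 UMIs of PDE6H, a cone phosphodiesterase subunit, and more PDE6H than NRL. Another class had at least 2 UMIs of the transcription factors TFAP2A and TFAP2B together, and all remaining cells formed the other class.

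The cells came from retinal organoids of WA09 CRX-tdTomato, a line of the established human embryonic stem cell WA09 in which the photoreceptor gene CRX reports through tdTomato. Organoids of day 113 to 126 were broken by pipetting. The transplanted samples were fragments recovered 3 days after injection under the retina of dogs with normal eyes, whereas the cultured samples were left in a dish for 3 days after the same breaking, each taken from the organoid batch of its transplanted partner. There were 3 experiments, called Sets, with 1 cultured and 1 transplanted sample each, so that n = 3 per group and all samples carry the same reporter allele. The organoids come from 1 line, and whether several eyes were pooled is not given in the sources used here.

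A ribbon synapse holds its vesicles on an electron-dense plate built mainly of RIBEYE, a product of the CTBP2 gene, and releases glutamate continuously in darkness. L-type calcium channels under the ribbon trigger the release, and complexins and other SNARE-binding proteins set its rate. Photoreceptors make such synapses with bipolar and horizontal cells, whereas the synapses of amacrine cells lack ribbons.

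Between 690 and 15336 cells per sample were kept, from libraries of 6850189 to 108222149 UMIs. Rods numbered 162 to 2979 per sample, cones 33 to 2426, TFAP2-positive cells 21 to 801 and other cells 459 to 10107. The median depth was 3271 to 6313 UMIs in rods, 3300.5 to 12773 in cones, 1901 to 7163 in TFAP2-positive cells and 1682 to 2978.5 in other cells. Any 2 libraries shared 0 to 62 cell barcodes, at most 0.879% of the smaller library. The transplanted sample of Set 1 had only 21 TFAP2-positive cells with 63752 UMIs in all, so a count of 0 there allows up to 47.1 CPM (3 counts of the total, counting error only).

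The rod and cone gates enriched further markers of each type but did not separate the classes fully. NR2E3, a rod transcription factor, averaged 186 ± 80.6 CPM (SD, n = 6 samples) in rods and 39.8 ± 23.4 in cones, whereas RXRG, a cone nuclear receptor, averaged 161 ± 51.6 in rods and 280 ± 42.1 in cones. Cones still held 439 CPM of NRL, and rods 392 CPM of PDE6H. The TFAP2 gate went against a label of amacrine cells alone. It held the amacrine marker GAD2 at 114 ± 55.0 CPM, but also the horizontal cell markers ONECUT1 at 515 ± 381 CPM and PROX1 at 387 ± 220 CPM, and these cells are therefore called TFAP2-positive here. Their make-up differed by Set. Summed horizontal markers were at 612 and 612 CPM in cultured and transplanted Set 1, and at 2201 to 3591 CPM in Sets 2 and 3. Summed amacrine markers were at 1241 and 1145 CPM in Set 1, and at 1522 to 2323 CPM in Sets 2 and 3. Over the 6 samples the amacrine sum averaged 1581 CPM and the horizontal sum 2037 CPM. Cultured Set 1 held 852 CPM of dividing progenitor markers, and the other samples at most 125 CPM. The other cells were a mixture that still held 102 ± 81.5 CPM of CRX, which was 241 ± 139 CPM in rods.

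Most of the ribbon synapse list was higher in photoreceptors than in both of the remaining classes, but its members split within gene families. Against TFAP2-positive cells, 23 of the 35 members tested were higher in photoreceptors (the mean of the rod and cone coefficients), 10 were lower, and LRIT2 and ELFN2 were too low to test. Over all 18259 genes tested, 48.1% were called, 29.9% higher and 18.2% lower. The median log2 difference was 0.88 over the members and 0.18 over all genes. With RLE scaling the all-gene median moved by -0.19 and the share of all calls that were higher went from 62.2% to 47.7% (44.4% with DESeq2), and PCLO was then the only member to lose its call. Against other cells, 24 of 35 members were higher and 4 lower, beside 45.5% of all genes called, 16.6% higher and 28.9% lower, with medians of 0.90 over the members and -0.10 over all genes. Without the sample as a block, 22 members were called against TFAP2-positive cells, beside 18.2% of all genes, and 9 against other cells, beside 3.7%.

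**Figure D1:**
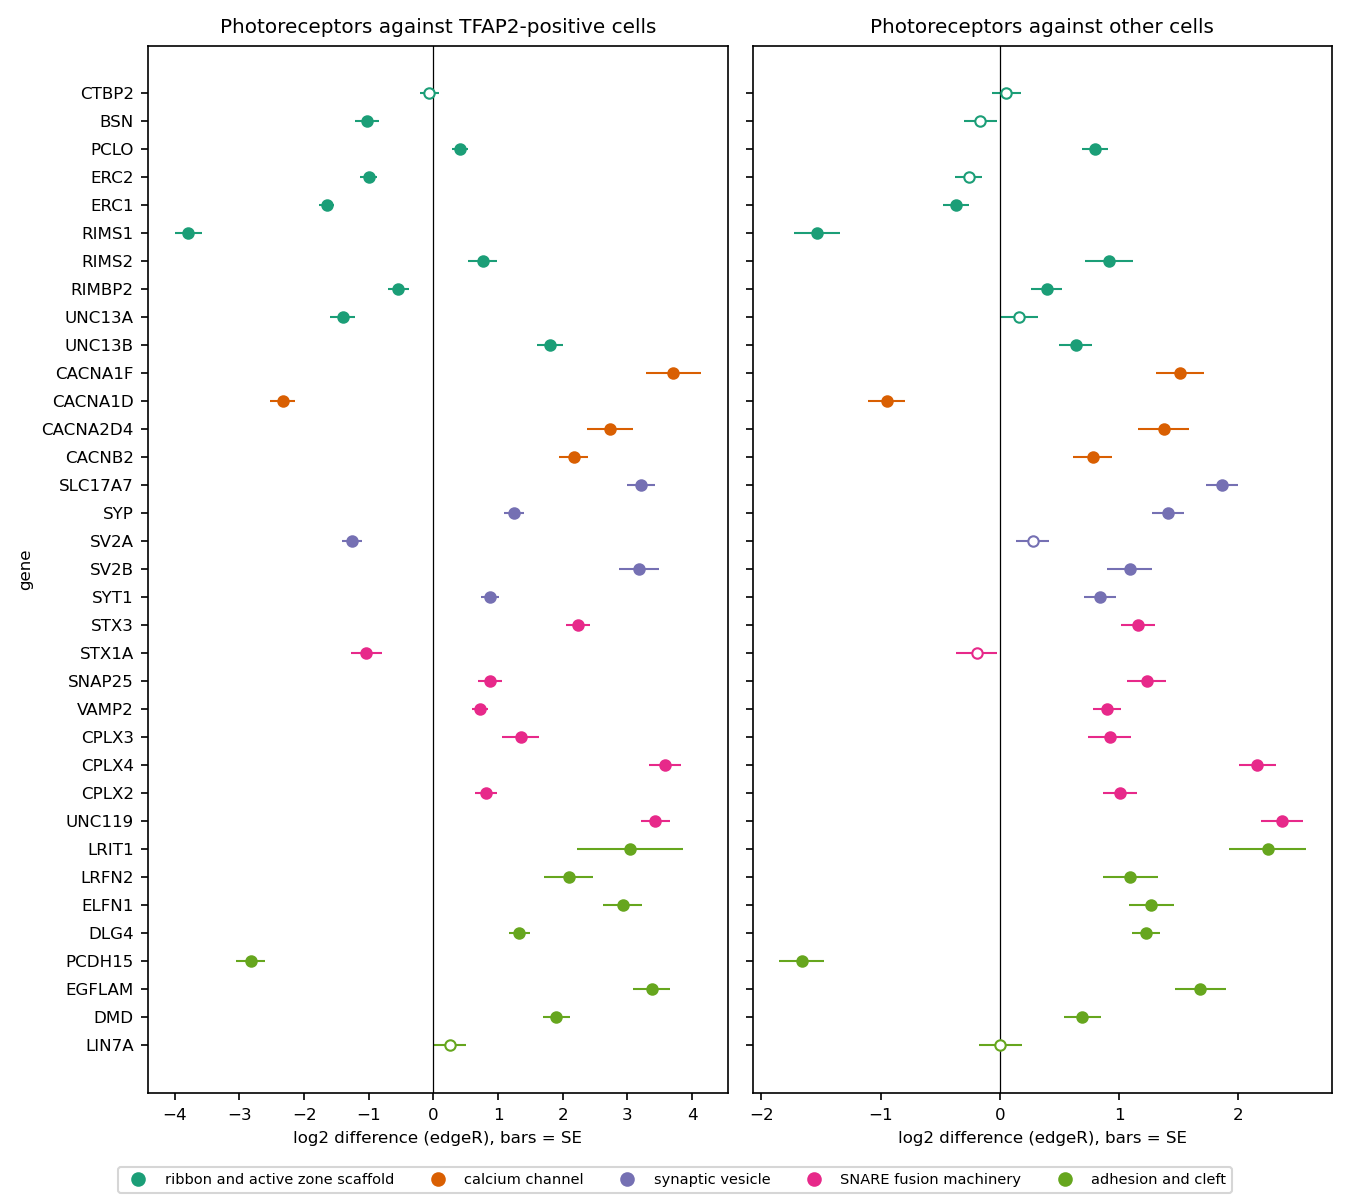
Log2 difference of photoreceptors against TFAP2-positive cells (left) and against other cells (right) for the 35 members tested, coloured by role. Points are edgeR estimates, bars 1 SE, and filled points passed an adjusted p of 0.05. RIMS1, PCDH15 and CACNA1D lie at the left of both panels, and UNC119, CPLX4 and SLC17A7 at the right.

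The calcium channel subunits showed the split most plainly. CACNA1F, the pore of the channel of the photoreceptor terminal, was at 6.43, 21.5 and 43.5 CPM in rods of cultured Sets 1, 2 and 3 and at 8.55, 40.1 and 51.3 CPM in the transplanted ones. In TFAP2-positive cells CACNA1F was at 2.61, 1.04 and 13.9 CPM in culture and at 0, 0 and 2.13 CPM after transplantation, where counts of 0 allow up to 47.1 CPM in Set 1 and 15.9 CPM in Set 2. The rod level of transplanted Set 1 lies under that limit, so this sample shows no direction, and photoreceptors were above TFAP2-positive cells in the other 5. The fitted log2 difference was 3.71 ± 0.43 (SE, adjusted p = 1.0e-07). CACNA1D, the related pore subunit, went the other way. It was at 3.17, 21.1 and 27.8 CPM in cultured rods and at 5.23, 99.3 and 133 CPM in cultured TFAP2-positive cells, and the log2 difference was -2.33 ± 0.19 (adjusted p = 4.4e-11, lower in 5 of 6 samples). The exception was transplanted Set 1, where TFAP2-positive cells had no CACNA1D count. The auxiliary subunits CACNA2D4 and CACNB2 were higher in photoreceptors, by 2.74 ± 0.36 and 2.17 ± 0.23.

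Of the scaffold genes, 3 were higher in photoreceptors than in TFAP2-positive cells and 6 were lower. RIMS1 and RIMS2 encode related active zone proteins that tether vesicles and channels. RIMS1 averaged 7.47 ± 4.72 CPM in rods (SD, n = 6), 5.58 ± 3.12 in cones and 115 ± 74.3 in TFAP2-positive cells, a log2 difference of -3.79 ± 0.21 (adjusted p = 2.3e-13, lower in 6 of 6 samples). RIMS2 was higher in photoreceptors by 0.76 ± 0.22 (adjusted p = 0.0064). The priming factors divided in the same manner, with UNC13B at 1.80 ± 0.20 and UNC13A at -1.40 ± 0.19. ERC1, ERC2 and BSN, which organise the active zone in many synapses, were lower, with log2 differences of -1.65 ± 0.12, -0.997 ± 0.13 and -1.03 ± 0.18. RIMBP2 was lower at -0.54 ± 0.17, and against other cells it had 0.39 ± 0.13, with rods at 18.9 CPM, cones at 34.2 and other cells at 23.3. The call against other cells was lost without Set 1, after thinning, without the sample as a block, and with rods free of PDE6H and cones free of NRL. PCLO, whose product joins the ribbon scaffold, had a log2 difference of 0.41 ± 0.12 that passed, but in 4 of 6 samples only. The call was lost on leaving out any 1 Set, after thinning, with raised gates and in further alternatives. RIMBP2 lost its call without Set 2, with lowered gates, after thinning and when cells with ONECUT1, ONECUT2 or LHX1 were left out. STX1A and RIMS2 lost theirs without Set 3, and RIMS2 also with raised gates. Without the sample as a block, ERC2, PCLO, RIMBP2, RIMS2 and STX1A were among the members not called.

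CTBP2 did not pass the test in either class comparison, but was called lower than in TFAP2-positive cells after thinning and without Set 1, and lay below them in 5 of 6 samples. It averaged 112 ± 22.7 CPM in rods, 117 ± 25.5 in cones, 136 ± 65.0 in TFAP2-positive cells and 127 ± 50.1 in other cells (SD, n = 6), and the classes overlapped. The log2 difference of photoreceptors was -0.06 ± 0.14 against TFAP2-positive cells and 0.05 ± 0.12 against other cells. RIBEYE is made from its own first exon and shares the 3' end of the gene with the ubiquitous CTBP2 co-repressor. Reads from the 3' end therefore count both, and the RIBEYE share was not measured.

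Vesicle and fusion genes were mostly higher in photoreceptors. SLC17A7, the vesicular glutamate transporter VGLUT1, averaged 59.9 ± 13.1 CPM in rods, 92.6 ± 8.88 in cones, 8.93 ± 3.94 in TFAP2-positive cells and 23.4 ± 8.36 in other cells, and photoreceptors stood above TFAP2-positive cells in 6 of 6 samples (log2 difference 3.21 ± 0.22, adjusted p = 1.1e-12). SV2B and SV2A, vesicle glycoproteins of 1 family, differed in opposite directions, by 3.19 ± 0.31 and -1.26 ± 0.16. STX3, the syntaxin of ribbon synapses, was higher by 2.24 ± 0.19, and STX1A, the syntaxin of conventional synapses, lower, at -1.04 ± 0.24. The complexins CPLX3 and CPLX4, which are typical of ribbon synapses, were higher by 1.35 ± 0.29 and 3.58 ± 0.25. STX1A and CPLX3 lost their calls after thinning and when cells with ONECUT1, ONECUT2 or LHX1 were left out of the TFAP2 gate. CPLX2 was higher by 0.81 ± 0.18, a call lost with raised gates and without the sample as a block. UNC119, a lipid-binding protein of photoreceptors, averaged 367 ± 72.3 CPM in rods and 46.4 ± 25.8 in TFAP2-positive cells (3.43 ± 0.22, adjusted p = 5.1e-13). SNAP25, VAMP2, SYP and SYT1, shared by ribbon and conventional synapses, were higher by 0.72 to 1.25.

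**Figure D2:**
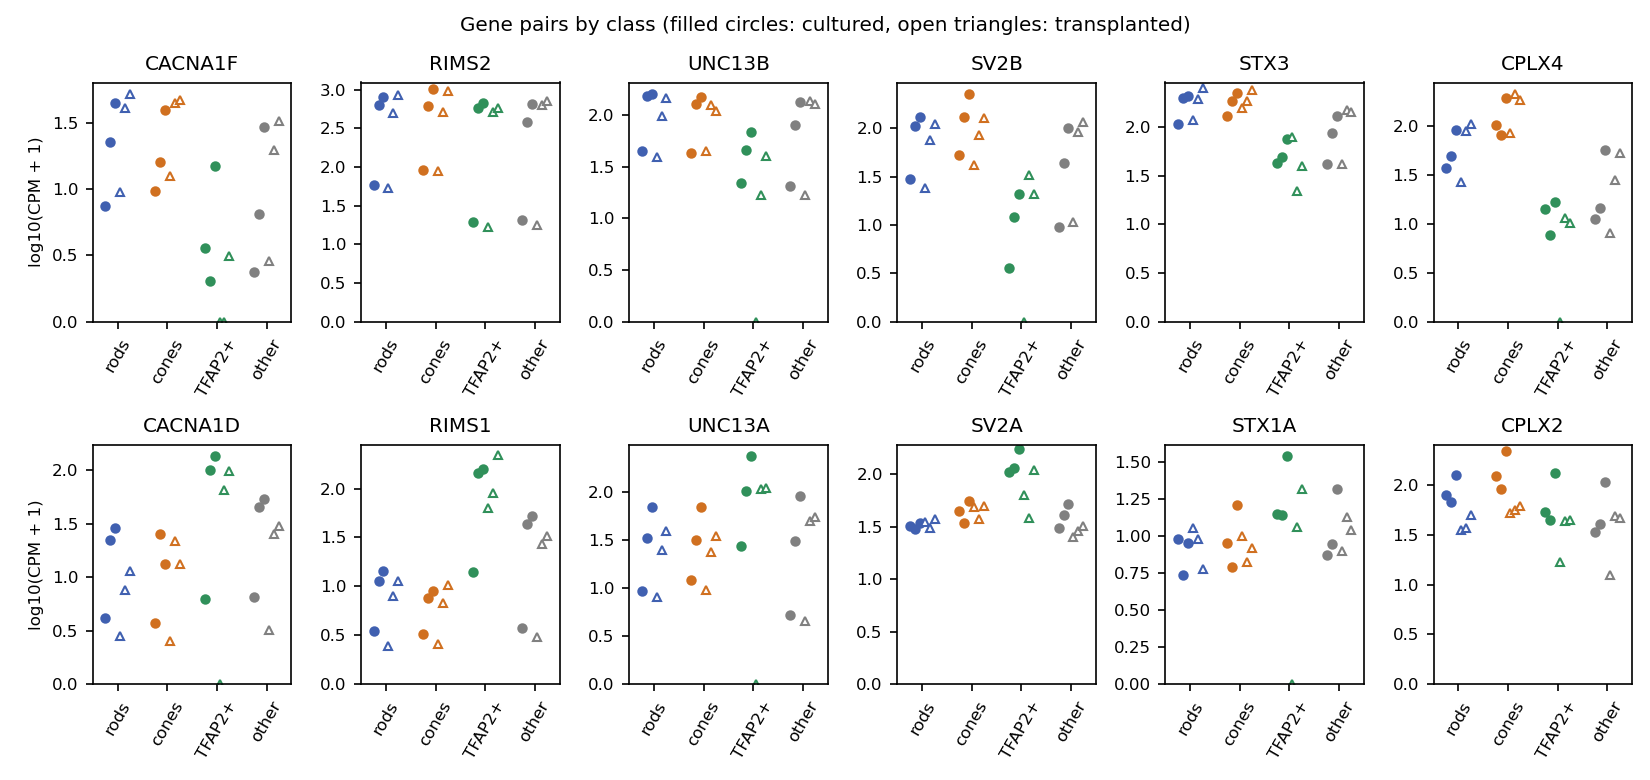
Level of 6 gene pairs in each class, as log10(CPM + 1) per sample, with the member that is higher in photoreceptors above and its relative below. Filled circles are cultured and open triangles transplanted samples. In the first 5 pairs the upper gene was higher and the lower gene lower in photoreceptors than in TFAP2-positive cells. Both CPLX4 and CPLX2 were higher in photoreceptors.

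Among adhesion and cleft genes, 6 were higher and 1 lower. EGFLAM, or pikachurin, which links photoreceptors to bipolar dendrites through dystroglycan, averaged 435 ± 309 CPM in rods, 661 ± 460 in cones and 65.7 ± 50.1 in TFAP2-positive cells (3.38 ± 0.29, adjusted p = 5.3e-10, higher in 6 of 6 samples). ELFN1, which recruits the glutamate receptor of rod bipolar cells, was higher by 2.93 ± 0.30, LRFN2 by 2.09 ± 0.37, DMD by 1.90 ± 0.21 and DLG4 by 1.33 ± 0.17. LRIT1, at 2.55 ± 1.03 CPM in rods, passed the test (3.04 ± 0.82), but TFAP2-positive cells had counts of it in 1 sample only. The fitted value is therefore no measure of size. The call was lost without Set 1, without Set 2, after thinning, with raised gates and with both gates chosen after seeing the data. PCDH15, a cadherin known from hair cell tip links, was lower (-2.83 ± 0.22), and LIN7A did not pass the test (0.26 ± 0.25).

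Some members carried the core letters of the CRX binding motif just before their start. TAATCC, or GGATTA on the other strand, was searched in the 250 bases before each RefSeq start, and 33 of the 37 members had at least 1 window in the RefSeq table (GRCh38.p14). Of the members higher in photoreceptors than in TFAP2-positive cells, 5 of the 19 with a window held it (CACNA1F, CPLX3, CPLX4, LRIT1 and SV2B), against 1 of 10 lower members (PCDH15). CTBP2 and LRIT2 also held it. Per gene the share was 26.3% of the higher members, 24.2% of all members (8 of 33) and 6.90% of all genes in the table. Per window it was 14.9% of 67 member windows, 12.2% of the 41 windows of the higher members and 5.62% of all 35116 windows. By window the higher members thus did not exceed the members as a whole, and by gene the shares were close. Members with several starts have several windows, and a match describes letters, not a bound site. The homeodomain core TAATTA was found in 1 member, CPLX4, and the letters TGCTGAC or GTCAGCA in 1 member, CPLX3, against 4.35% and 3.43% of all windows. The windows below show 3 genes that were higher in photoreceptors, the ribbon gene CTBP2 and the lower gene PCDH15, each on the minus strand and read 5′ to 3′ towards the start, with the motif in capitals. They lie at chr18:59318650-59318899 (CPLX4), chrX:49233372-49233590 (CACNA1F, where 31 bases inside a GENCODE exon were left out), chr10:84241547-84241796 (LRIT1), chr10:125028072-125028321 (CTBP2) and chr10:55627943-55628192 (PCDH15).
CPLX4: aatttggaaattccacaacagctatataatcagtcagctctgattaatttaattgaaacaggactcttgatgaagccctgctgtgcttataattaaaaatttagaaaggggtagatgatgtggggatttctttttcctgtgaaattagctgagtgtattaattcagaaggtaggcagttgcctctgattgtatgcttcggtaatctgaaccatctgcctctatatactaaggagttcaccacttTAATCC
CACNA1F: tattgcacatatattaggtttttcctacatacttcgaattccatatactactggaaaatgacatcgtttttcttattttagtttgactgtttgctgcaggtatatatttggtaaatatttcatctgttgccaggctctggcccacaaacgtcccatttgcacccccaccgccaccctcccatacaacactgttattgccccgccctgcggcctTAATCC
LRIT1: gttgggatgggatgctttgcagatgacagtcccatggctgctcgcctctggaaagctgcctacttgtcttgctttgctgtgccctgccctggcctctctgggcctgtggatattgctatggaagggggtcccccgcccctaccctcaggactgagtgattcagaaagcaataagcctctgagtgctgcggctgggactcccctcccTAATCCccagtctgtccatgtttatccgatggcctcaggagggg
CTBP2: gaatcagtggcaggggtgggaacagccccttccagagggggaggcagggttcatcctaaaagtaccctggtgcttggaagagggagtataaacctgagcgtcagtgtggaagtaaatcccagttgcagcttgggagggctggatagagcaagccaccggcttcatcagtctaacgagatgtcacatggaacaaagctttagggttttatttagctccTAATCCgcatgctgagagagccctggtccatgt
PCDH15: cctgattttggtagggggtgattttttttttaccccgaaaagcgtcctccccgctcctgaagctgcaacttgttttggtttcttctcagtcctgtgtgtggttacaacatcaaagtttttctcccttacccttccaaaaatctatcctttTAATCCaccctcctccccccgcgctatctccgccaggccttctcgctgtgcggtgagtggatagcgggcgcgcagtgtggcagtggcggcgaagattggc
The motif begins 6 bases before the start in CPLX4, 37 in CACNA1F, 44 in LRIT1, 33 in CTBP2 and 100 in PCDH15. The CTBP2 window belongs to a start 181 bases from that of the GENCODE v29 transcript with the longest coding length of the gene, 2955 nt.

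Cones stood above rods for a subset of the list. Of 35 members tested, 6 were lower in rods and 0 higher, where 5% of all 18259 genes were called, 1.54% higher and 3.46% lower. The median log2 difference of rods against cones was -0.19 over the members and 0.02 over all genes. CPLX4 (chromosome 18, 59275156 to 59318649, GENCODE v29 on GRCh38) was at 36.6, 49.0 and 90.1 CPM in rods and at 103, 79.4 and 194 CPM in cones of cultured Sets 1, 2 and 3. In the transplanted samples CPLX4 was at 25.6, 88.8 and 105 CPM in rods and at 84.5, 213 and 183 CPM in cones. Each sample had more CPLX4 in its cones, although the ranges of the classes overlapped across Sets, and the log2 difference was -1.21 ± 0.16 (adjusted p = 1.6e-05).

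The other members lower in rods covered several steps of release. SLC17A7 was at 43.5 to 77.8 CPM in rods and 82.1 to 108 CPM in cones, with no overlap (-0.68 ± 0.14, adjusted p = 0.0022). The log2 difference was -0.61 ± 0.15 for CPLX2 (adjusted p = 0.0129) and -1.36 ± 0.26 for LRFN2, a synaptic adhesion protein (adjusted p = 0.00207). For RIMBP2, which couples channels to the active zone, it was -0.79 ± 0.15 (adjusted p = 0.0011), and for PCLO -0.47 ± 0.12 (adjusted p = 0.0197). All 5 were lower in rods in 6 of 6 samples. EGFLAM came nearest to the threshold among the 29 uncalled members (-0.74 ± 0.22, adjusted p = 0.057). Without the sample as a block no member was called, beside 1 of all 18259 genes. Without Set 3, CPLX4 and LRFN2 kept their calls, and CPLX2, PCLO, RIMBP2 and SLC17A7 had adjusted p of 0.17, 0.14, 0.10 and 0.091. PCLO was also uncalled without Set 1 or without Set 2 (0.18 and 0.10). The median UMI count of a cone was above that of a rod in 6 of 6 samples. With every cell thinned to 2000 UMIs, 11 members were called, 10 of them lower in rods, beside 10.3% of all 14252 genes. With rods free of PDE6H and cones free of NRL, 14 were called, 13 of them lower in rods, beside 13.5% of all 14910 genes, of which 977 were higher and 1040 lower.

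**Figure D3:**
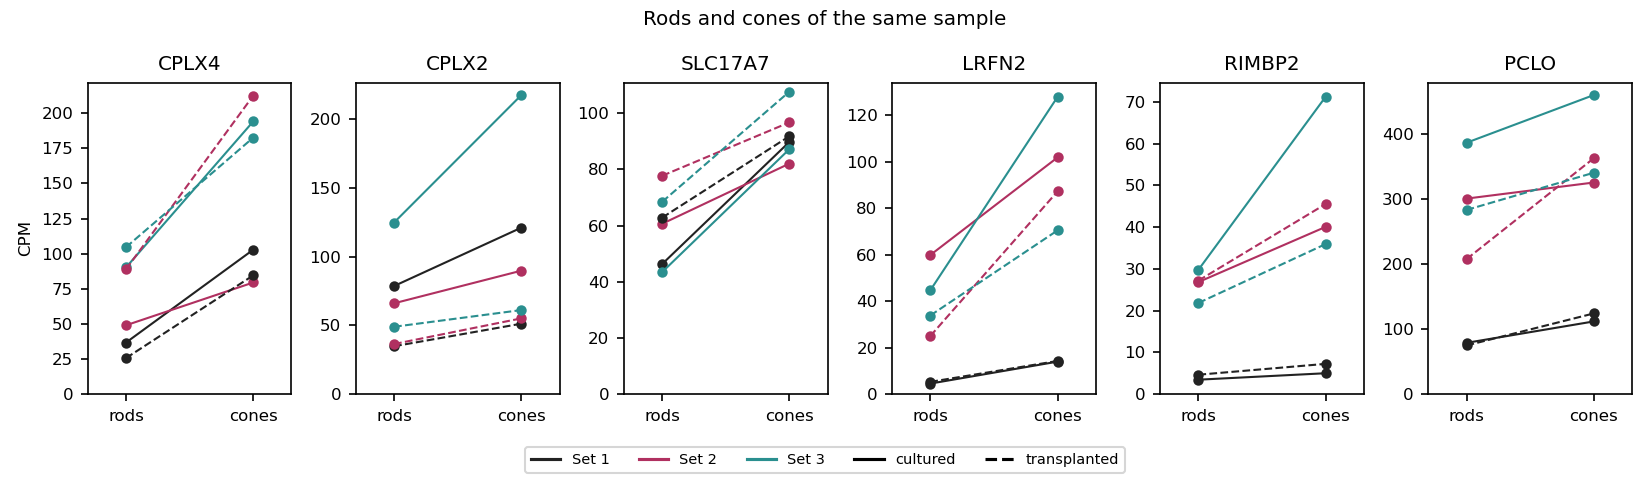
CPM of the 6 members lower in rods, with 1 line per sample joining its rods and its cones. Colours give the Set, solid lines cultured and dashed lines transplanted samples. Every line goes up from rods to cones, and Set 1 lies lowest for LRFN2, RIMBP2 and PCLO.

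Transplantation for 3 days went with few differences in the list. In rods, 3 of 36 members tested were lower in transplanted samples and 0 were higher, beside 4.99% of all 17972 genes called, 2.48% higher and 2.52% lower. ELFN2 was too low to test. The median log2 difference was 0.04 over the members and -0.02 over all genes, and 33 members did not pass, which does not show that they were alike. CPLX2 (chromosome 5, 175796310 to 175884020), a complexin of many forebrain synapses, was at 78.5, 65.996 and 125 CPM in cultured rods of Sets 1, 2 and 3 and at 34.7, 36.4 and 48.9 CPM in transplanted rods. The groups did not overlap, and the log2 difference was -0.97 ± 0.22 (adjusted p = 0.011, lower in 3 of 3 Sets).

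CACNA1D and PCDH15 were the other members that fell in rods, both of them low in photoreceptors and high in TFAP2-positive cells. CACNA1D was at 3.17, 21.1 and 27.8 CPM in cultured and 1.83, 6.64 and 10.3 CPM in transplanted rods (-1.15 ± 0.28, adjusted p = 0.015). PCDH15 was at 1.41, 23.9 and 35.4 CPM in cultured and 1.22, 6.32 and 8.77 CPM in transplanted rods (-1.40 ± 0.31, adjusted p = 0.0079). Both were lower in 3 of 3 Sets, but the groups overlapped because Set 1 was low in culture as well. The summed level of 9 horizontal cell markers in rods was lower after transplantation in each Set, from 360, 422 and 394 CPM to 252, 272 and 276 CPM, with ONECUT1 at 14.9 CPM on average. That of 8 markers of dividing progenitors went from 831, 269 and 357 CPM to 191, 120 and 131 CPM, and the summed bipolar, Mueller glia, retinal ganglion cell and RPE markers were also lower in 3 of 3 Sets. The amacrine marker sum was lower in 1 of 3 Sets, from 414, 692 and 584 CPM to 424, 682 and 662 CPM. Ganglion cell markers went from 87.5, 142 and 84.9 CPM to 53.2, 99.3 and 60.1 CPM, and the median mitochondrial share of a rod from 1.72, 2.90 and 1.11% to 4.36, 3.56 and 3.26%. Their part in the results was not tested.

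The rod calls changed when a Set was left out. Without Set 1 the adjusted p was 0.119 for CPLX2, without Set 2 it was 0.144 for CACNA1D and 0.0685 for PCDH15, and without Set 3 none of the 3 passed (0.0643, 0.135 and 0.212 for CPLX2, CACNA1D and PCDH15). Without the Set as a block 0 members were called, beside 0 of all 17972 genes. With cells thinned to 2000 UMIs 0 members were called beside 1.79% of 12461 genes, and with rods free of PDE6H 0 beside 0.982% of 14869 genes. In another alternative, the host filter, cells poor in clone-named human transcripts were left out as possible host cells, which was not tested. The 3 then kept their calls, CACNA1F was called higher and ERC2 lower. The rods of transplanted Set 3 went from 1250 to 1141 with this filter, and each other sample lost fewer. The log2 difference of CPLX2 ranged from -1.08 to -0.75 over 14 alternatives.

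In cones, CPLX2 alone was called of 36 members, lower in transplanted samples, where 0.669% of all 17500 genes were called, 0.28% higher and 0.389% lower. It was at 121, 89.7 and 217 CPM in cultured cones and at 51.2, 55.0 and 61.1 CPM in transplanted cones, without overlap (CPLX2, -1.23 ± 0.27, adjusted p = 0.045). In cones the horizontal marker sum also went from 388, 460 and 419 CPM to 298, 232 and 291 CPM, that of progenitor markers from 537, 193 and 137 CPM to 149, 74.0 and 85.2 CPM, and the median mitochondrial share from 1.61, 2.15 and 1.69% to 4.35, 2.67 and 3.33%. The bipolar sum was higher in each Set, from 110, 258 and 359 CPM to 198, 292 and 371 CPM. So was the amacrine sum, from 358, 624 and 586 CPM to 404, 659 and 678 CPM. Their part was not tested. The CPLX2 call passed in 6 of 14 alternatives, with adjusted p of 0.62 without Set 1 and 0.075 without Set 2. PCDH15 had a log2 difference of -1.28 ± 0.43 (adjusted p = 0.22) and CACNA1D of -0.25 ± 0.34 (adjusted p = 0.84). When the response of rods was compared with that of cones in 1 fit, 0 of 37 members differed, beside 0.0154% of all 19451 genes (0.00514% higher, 0.0103% lower). The difference in response was 0.21 ± 0.15 for CPLX2 and -0.38 ± 0.33 for CACNA1D, and 4 members had an unadjusted p below 0.05. DESeq2 called 0 members.

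**Figure D4:**
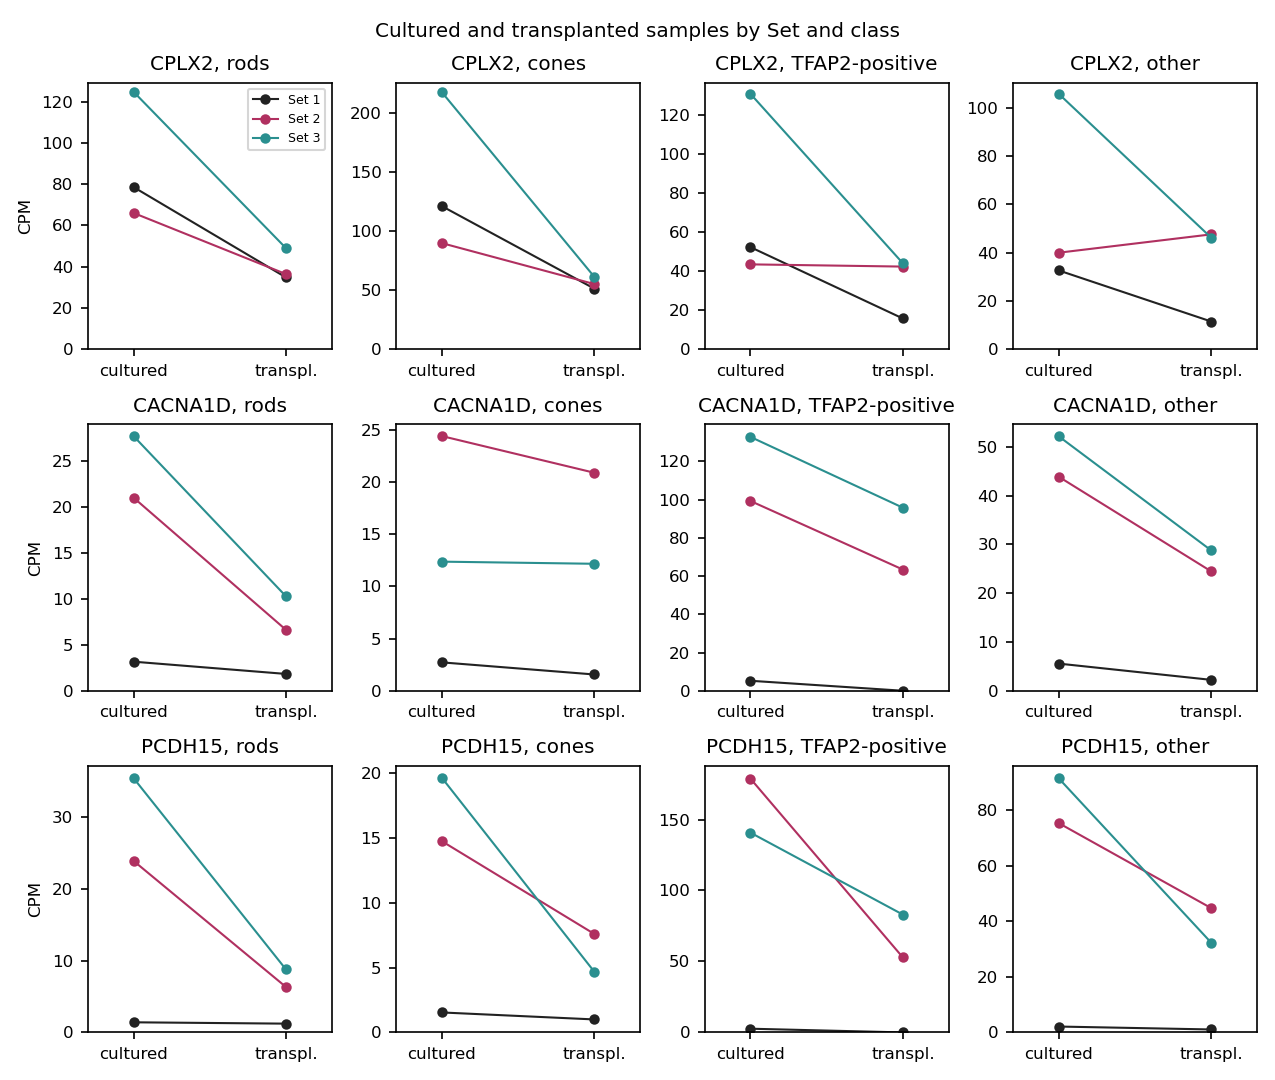
CPM of CPLX2, CACNA1D and PCDH15 in cultured and transplanted samples of each Set (colours), by class. CPLX2 was lower after transplantation in every Set in rods and in cones, and CACNA1D and PCDH15 of Set 1 lie near the bottom of every panel.

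In TFAP2-positive cells, 0 of 25 members tested were called, beside 0.13% of all 7667 genes, and 12 members were too low to test. At an unadjusted p below 0.05 there were 4 members, and DESeq2 called 0. CPLX2 was at 52.3, 43.4 and 131 CPM in cultured and 15.7, 42.3 and 44.0 CPM in transplanted TFAP2-positive cells (-1.09 ± 0.42, adjusted p = 0.50). In other cells, 0 of 35 members were called, beside 0.185% of all 19966 genes (0.115% higher, 0.0701% lower), with 9 members at an unadjusted p below 0.05. DESeq2 called 1, CACNA2D4, which was at 0.59, 10.9 and 27.9 CPM in culture and 1.11, 65.7 and 56.3 CPM after transplantation (edgeR 1.61 ± 0.33, adjusted p = 0.12). Myeloid markers in the other cells summed to 2.08, 8.51 and 9.64 CPM in culture and 23.4, 69.2 and 41.7 CPM after transplantation, and in rods to 1.32 to 4.43 CPM. Whether the cells of this class differ in kind between the groups was not tested.

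The level of many members differed between Sets, and more so among the longest members than among the shortest. An association with length over all members was not tested. The 14 members that span at least 200 kb had a median ratio of Sets 2 and 3 to Set 1 of 6.56 in rods (2.77 to 18.3), and the 10 members under 30 kb one of 1.15 (0.692 to 5.22). DMD, the dystrophin gene of 2242 kb, had a ratio of 15.9, and VAMP2, of 4.40 kb, one of 0.993. Length did not order all members, since CACNA2D4, of 127 kb, had a ratio of 17.6 and SYT1, of 588 kb, one of 2.77. The file headers name Cell Ranger 6.0.2 for the matrices of Set 1 but 7.1.0 for all others, so the version and the Set cannot be told apart. The tests above were made within a Set or a sample, except those without the block. The marker levels of TFAP2-positive cells were compared across Sets, where the version and the Set cannot be told apart either.

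**Figure D5:**
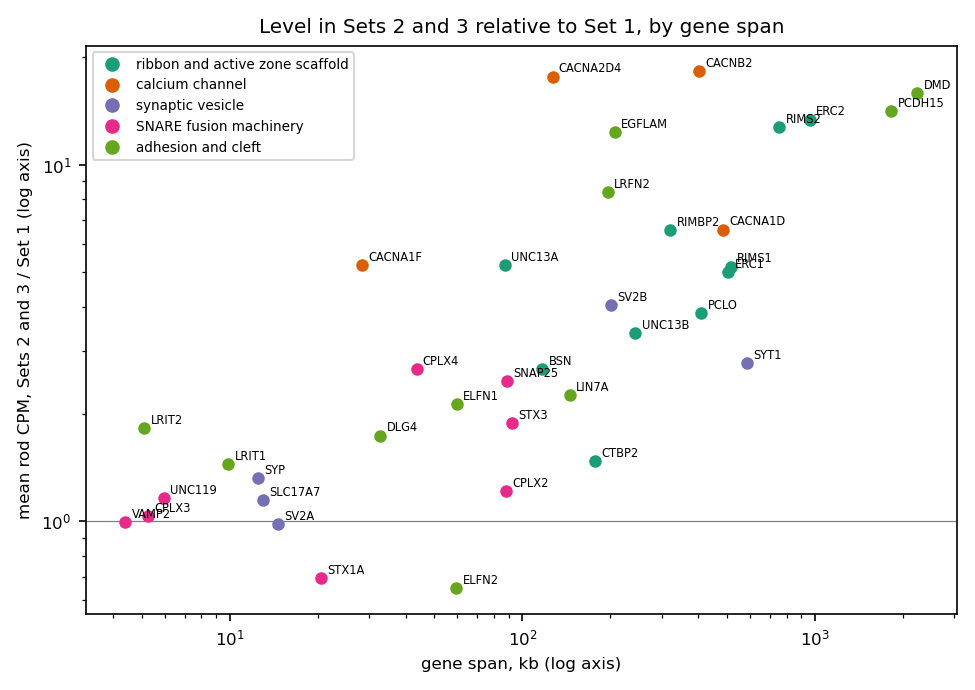
Mean rod CPM of Sets 2 and 3 divided by that of Set 1, against the genomic span of each of the 37 members, both on log axes and coloured by role. Members of at least 200 kb lie between 2.77 and 18.3, and most short members lie near 1.

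Of 132 further names in 6 lists of related genes, 130 were in the files. Of 11 tested genes of bipolar dendrites, the partners across the cleft, 6 were higher and 4 lower in photoreceptors than in TFAP2-positive cells, where 48.1% of all genes were called. RGS7, a regulator of G protein signalling, and GRIA2, an AMPA receptor subunit, were lower (-4.27 ± 0.24 and -4.15 ± 0.28). GRM6, the glutamate receptor of ON bipolar cells, was higher in photoreceptors than in TFAP2-positive cells by 3.49 ± 0.30 and than in other cells by 2.05 ± 0.18. A list of 10 bipolar cell markers, GRM6 among them, summed to 150 to 683 CPM in rods and averaged 410 CPM there and 234 CPM in other cells, and the part of bipolar RNA or doublets in these values was not tested. In rods, 2 of the 11 tested genes of this list rose after transplantation and 4 fell, beside 4.99% of all genes called (2.48% higher, 2.52% lower). GRM6 was at 21.7, 71.1 and 72.8 CPM in cultured and 62.7, 171 and 121 CPM in transplanted rods (1.34 ± 0.24, adjusted p = 0.0016). RGS11, a regulator in the same cascade, rose by 1.46 ± 0.27, and GRIK1, a kainate receptor of OFF bipolar cells, fell by 0.95 on the log2 scale. The list's median was 0.00.

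The further lists are read against the same share of 48.1% of all genes called (29.9% higher, 18.2% lower) in photoreceptors against TFAP2-positive cells. For rods against cones the share was 5% (1.54% higher, 3.46% lower), and for transplanted rods 4.99% (2.48% higher, 2.52% lower). Among calcium channel partners, 5 of 19 were higher in photoreceptors than in TFAP2-positive cells and 9 lower, including CABP1 (-5.96 ± 0.32) and CACNB4 (-3.53 ± 0.19), and in rods CABP2 rose after transplantation by 1.87 ± 0.41 while CACNA1A fell by 0.87 on the log2 scale. Of 22 synapsins and other vesicle proteins, 3 were higher and 8 lower, a total near the 48.1% of all genes. SYN3, a synapsin of conventional synapses, was among the lower ones at -5.42 ± 0.19, and none of the list was called in transplanted rods. Of 24 endocytosis genes, 12 were higher and 4 lower against TFAP2-positive cells, and 5 were lower in rods than in cones, led by SH3GL2, an endophilin (-1.44 ± 0.25). In transplanted rods 1 of them, AMPH, fell by 0.81. Of 21 priming and docking genes, 10 were higher and 5 lower. In rods against cones, 1 of them was higher, SYTL4 by 1.31 ± 0.21, and 2 were lower, with a median of -0.12. Of the synapsin and vesicle, bipolar dendrite and scaffold lists, 2, 2 and 1 genes were lower in rods than in cones and 0 higher. DOC2A and TPRG1L rose in transplanted rods by 1.28 ± 0.28 and 0.77 ± 0.21, while CADPS2 fell by 0.91. Of 29 scaffold and dystroglycan genes, 11 were higher and 10 lower, with NRXN2 at -3.05 ± 0.17, and in transplanted rods MPP4, a photoreceptor scaffold, rose by 0.89 while UTRN fell by 1.07. None of these lists had a gene called in transplanted cones, TFAP2-positive cells or other cells.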

How the data were processed

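Droplet 3' single-cell RNA sequencing (10x v3.1) was read from 6 matrices of deposited raw UMI counts, which the authors made with Cell Ranger 6.0.2 (Set 1) or 7.1.0 (Sets 2 and 3), per the file headers, on GRCh38, per the submitters' processing notes. Intron counting is not given in the sources used here.

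Cells with at least 1000 UMIs, 500 genes and at most 20% mitochondrial UMIs were kept. Scrublet (Scanpy 1.11.5, 30 components) called 0 to 2 cells per sample automatically, so the highest scores were removed at 0.8% per 1000 cells. Cells meeting both a photoreceptor and the TFAP2 gate were left out. Counts were summed per sample and class (at least 20 cells) and tested with edgeR 4.0.16 (quasi-likelihood, filterByExpr, TMM, R 4.3.3), adjusted by Benjamini-Hochberg over all genes at 0.05, with the Set as a block for transplantation and the sample for classes. The labels pair the samples by batch, and deviations from group means correlated by 0.316 to 0.926 between samples of a Set. SE is the log2 difference over the root of F. Whether Sets are separate differentiations is not stated. The p-values measure the spread that remains among these samples after the block is removed. The class tests count all 6 samples as separate units, although the samples of a Set share an organoid batch. Alternatives included DESeq2 1.42.0. The scripts were tested on simulated data.

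The 37 members and all lists were chosen with earlier results of these data known. Named genes are all members and, per further list and comparison, up to 3 called genes with the smallest p.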

Additional observations from a re-analysis of the deposited data

Results flagged for a closer look

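Some members moved one way in all 3 Sets in 1 class and the opposite way in all 3 Sets in another. None of these differences was tested, and each is given as the difference between the log2 changes on transplantation. The vesicle glycoprotein SV2A differed by 1.21 between rods and TFAP2-positive cells and by 0.75 between rods and other cells, with a positive change in rods and a negative one in both other classes. Its relative SV2B differed by -0.68 between rods and other cells and by -1.04 between cones and other cells, with a negative change in photoreceptors and a positive one in other cells. LIN7A, a scaffold protein, had a positive change in cones (0.81) and differed by 1.21 from TFAP2-positive cells and by 1.301 from other cells. DMD differed by -1.31 between TFAP2-positive and other cells, and BSN by -0.55 between cones and TFAP2-positive cells. None of these members passed the test of transplantation in the classes named.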

How the results depend on the processing

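No member that passed a test changed sign under any alternative. Without the replicate block the members called were 0 in transplanted rods, 0 in cones, 0 for rods against cones and 9 against other cells. Of all genes, 0 of 17972, 0 of 17500, 1 of 18259 and 676 of 18259 were called there. In rods, 0 members were called after thinning, beside 223 of all 12461 genes. With the host filter 5 were called (1 higher, 4 lower), beside 1200 of all 18017 genes (568 higher, 632 lower). With rods free of PDE6H, an alternative chosen after seeing the data, 0 were called, beside 146 of all 14869 genes. Leaving out Set 1, 2 or 3 gave 2, 1 and 0, beside 648 of 18434, 652 of 18409 and 169 of 17441 genes. In cones, 0 members were called without doublet removal, with gates lowered by 1 UMI or raised by 2, and after thinning. Of all genes, 89 of 17837, 39 of 17479, 62 of 17070 and 85 of 9948 were called there. Leaving out Set 1, 2 or 3 gave 0, 0 and 1 in cones, beside 4 of 17226, 146 of 17809 and 499 of 16820 genes. With cones free of NRL, CPLX2 was lost (-1.61 ± 0.47, adjusted p = 0.058) and ELFN1 called lower, beside 1.1% of all 10300 genes. That fit and the one after thinning held 2 Sets only, since transplanted Set 2 kept 9 and 17 cones. In other cells DESeq2 called 1, no low-count filter 2 and the host filter 1, beside 221 of 19966, 390 of 32174 and 155 of 19738 genes. Leaving out Set 1, 2 or 3 gave 0, 2 and 1 there, beside 8 of 18462, 398 of 20424 and 420 of 20470 genes. For rods against cones thinning gave 11 members, beside 10.3% of all genes, and the gates free of the opposite marker 14, beside 13.5%. Leaving out Set 1, 2 or 3 gave 5, 8 and 2 members, beside 713 of 16709, 621 of 20093 and 252 of 18377 genes. The comparison of responses gave 1 member, ELFN1, with the gates free of the opposite marker, beside 0.182% of all genes. On leaving out a Set it gave 0 to 1, the latter without Set 2, where 53 of all genes were called. Against TFAP2-positive cells, leaving out those with ONECUT1, ONECUT2 or LHX1, also chosen after seeing the data, gave 29 members called (20 higher, 9 lower). Over all 20784 genes tested there, 6564 were called (3756 higher, 2808 lower). For transplantation in TFAP2-positive cells the raised gates, the thinned cells and the gate without horizontal markers could not be fitted, since under 2 Sets kept 20 cells. Depth limits TFAP2-positive cells most, where counts of 0 allow up to 47.1 CPM.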
